A study of Mus musculus with 10 samples.

Results

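The hormone receptors and transcription factors of the mammary luminal epithelium were followed here in 10 spontaneous mammary tumors of Tg-neu mice. The set was defined by a list of 9 genes: Esr1, Pgr, Prlr, Gata3, Foxa1, Elf5, Stat5a, Stat5b and Ehf. A gene was read through the array probe sets annotated to it alone, and 8 of the 9 genes had at least 1, of the 18193 genes that could be read this way in the whole series. The 8 genes had 18 probe sets. The one with the highest mean signal over the 10 arrays was taken as the main probe set of its gene, and the other 10 are given beside it. Prlr, the prolactin receptor, was not analysed here, because its symbol, gene number and accessions were not paired with a probe set in the annotation used.

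All 10 tumors came from female FVB/N-Tg(MMTVneu) mice, in which the mouse mammary tumor virus promoter drives the neu proto-oncogene in mammary epithelium. This promoter is itself responsive to steroid hormones, which limits the strain as a model of hormone signaling. Lov-treated mice received 10 mg/kg lovastatin (Lov), an inhibitor of HMG-CoA reductase, by intraperitoneal injection 3 times a week for 6 weeks from the onset of the first tumor, and Vhcl-treated mice received the ethanol vehicle (Vhcl) on the same schedule. The 5 Lov-treated tumors were A19, A48, A50, A55 and AB10, and the 5 Vhcl-treated tumors were A45, A49, A54, A59 and AB11. The treatment label of the Vhcl-treated tumors reads vehicle control, whereas a second free-text label describes them as not treated. The labels describe 5 mice per group without stating which mouse carried which tumor, so the p-values given here measure the spread between these tumors.

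Luminal cells of the mammary gland fall into a hormone-sensing class, which carries estrogen and progesterone receptors and depends on FOXA1 and GATA3, and an alveolar class, which answers prolactin through its receptor, the kinase JAK2 and the transcription factors STAT5A and STAT5B. Hormone-sensing cells pass the ovarian signal on to their neighbors by secreted ligands. In alveolar cells ELF5 acts with STAT5A to turn on the milk protein genes.

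Each array had been hybridized with RNA of a whole tumor, so fewer cells of a type and less RNA per cell cannot be told apart. Values are log2 signals after Robust Multi-array Analysis (RMA), on which a difference of 1 is a 2-fold difference. They describe 1 probe set across tumors and do not rank genes by abundance. The median signal of an array was 4.99 to 5.05 in the Lov group and 4.97 to 5.02 in the Vhcl group. Of 8 luminal epithelial markers, 7 lay above the array median in all 10 tumors, and their mean was 10.37 to 10.72 in Lov-treated and 10.58 to 10.96 in Vhcl-treated tumors. The mean of 6 skeletal muscle markers was 8.71 in Lov A55 and 4.39 to 5.12 among the remaining Lov-treated ones, against 8.87 in Vhcl A54, 8.99 in Vhcl A59 and 4.29 to 6.13 among the remaining Vhcl-treated ones. The mean of 6 salivary gland markers was 3.51 to 5.64 in Lov-treated tumors, against 11.7 in Vhcl AB11, 7.12 in Vhcl A59 and 4.19 to 4.99 in the other Vhcl-treated tumors. Without Lov A55, Vhcl A54 and Vhcl A59, or without Vhcl A59 and Vhcl AB11, the count of members past the threshold below was the same as with all tumors.

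Before the values, 4 stretches of sequence upstream of members are shown. They were taken from the 250 bases upstream of each annotated transcript start in RefSeq (build GRCm38.p6), which were available for 14 starts of 8 of the 9 genes and not for Ehf. Each stretch was chosen because it carries, in capitals, the recognition letters of a factor of this set or of its hormone system. The first lies before the second annotated start of Esr1 (chr10:4709920-4710019, plus strand) and carries the STAT5 palindrome TTCNNNGAA, starting 188 bases before that start. The second lies before Foxa1 (chr12:57546203-57546302, minus strand) and carries the forkhead motif TGTTTAC on the opposite strand, 141 bases before the start. The third and the fourth lie directly before the second start of Stat5a (chr11:100860384-100860483, plus strand) and before a start of Stat5b (chr11:100822571-100822670, minus strand). Both carry AGGTCA, a single arm of the estrogen response element, on the opposite strand, 44 and 35 bases before their starts.
Esr1: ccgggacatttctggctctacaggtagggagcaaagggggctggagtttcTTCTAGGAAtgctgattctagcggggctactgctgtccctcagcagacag
Foxa1: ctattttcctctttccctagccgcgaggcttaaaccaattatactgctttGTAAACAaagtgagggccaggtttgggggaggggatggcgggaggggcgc
Stat5a: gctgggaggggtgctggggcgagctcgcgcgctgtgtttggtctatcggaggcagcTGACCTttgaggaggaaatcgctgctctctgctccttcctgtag
Stat5b: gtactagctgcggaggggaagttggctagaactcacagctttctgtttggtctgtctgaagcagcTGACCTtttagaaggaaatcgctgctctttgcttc

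Stat5a and Stat5b are paralogs on mouse chromosome 11 that are transcribed in opposite directions, with their nearest annotated starts 9075 bases apart. The stretches printed for Stat5a and Stat5b lie before other starts than this nearest pair. The 2 stretches printed for them share a run of 16 bases, aggaaatcgctgctct, which begins 32 bases before the Stat5a start and 23 bases before the Stat5b start. The motifs were searched on both strands. TTCNNNGAA was in 2 of the 14 upstream stretches (Esr1 and Prlr), against 7.02% of 32851 mouse stretches of the same length, and AGGTCA was in 3 (both Stat5a starts and Stat5b), against 14% of them. The forkhead letters TGTTTAC were in 2 (Foxa1 and Prlr) against 3.17%, and the ETS letters AGGAAG, read by ETS factors such as ELF5 and EHF, were in 7 against 29.5%. The full estrogen response element, GGTCA and TGACC with 3 bases between them, was in 0 of 14 against 0.0639%, and the GATA letters AGATAA were in 0 against 9.99%. AGGTCA contains GGTCA and so overlaps the full element. These are matches of letters and not measured binding.

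The first question was whether Lov changed the level of any member. In limma, 0 of the 8 main probe sets and 0 of all 18 had an unadjusted p under 0.05, where 5.28% of the 45037 probe sets tested did (3.13% higher and 2.16% lower with Lov). By limma, 0 probe sets of the whole series passed an adjusted p of 0.05, although 2379 had an unadjusted p under 0.05, and without moderation the count was also 0. The lowest adjusted p among the members was 0.956, against a lowest of 0.369 over all probe sets (limma, Benjamini-Hochberg). For 0 of the 18 probe sets did the 5 Lov-treated tumors lie wholly above or below the 5 Vhcl-treated tumors, against 0.602% of all probe sets (0.344% with Lov above and 0.258% with Lov below). Of the main log2 differences, Lov minus Vhcl, 6 were positive and 2 negative, with a median of 0.078 against 0.01 over all probe sets. The 95% interval of the difference lay within 2-fold in both directions for 7 of the 8 genes, the exception being Esr1.

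**Figure D1:**
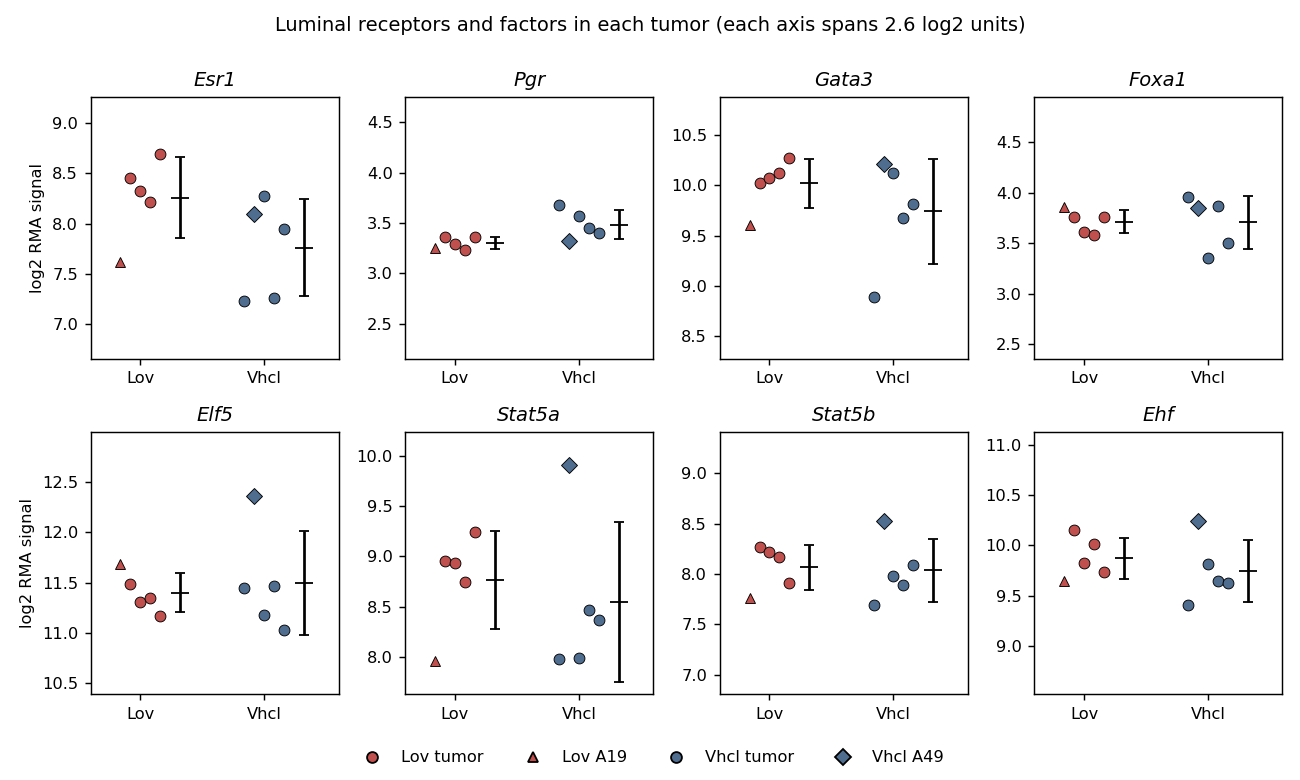
Log2 RMA signal (vertical axes) of the main probe set of each of the 8 measured genes, with Lov-treated tumors on the left and Vhcl-treated tumors on the right of each panel. Points are single tumors, bars are mean ± SD (n = 5), and Vhcl A49 (diamond) is the highest tumor for Elf5, Stat5a, Stat5b and Ehf.

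Esr1 encodes estrogen receptor alpha, the nuclear receptor through which estradiol acts on luminal cells. Its main probe set read 7.62, 8.45, 8.32, 8.21 and 8.69 in Lov A19, A48, A50, A55 and AB10, against 7.23, 8.09, 8.27, 7.26 and 7.95 in Vhcl A45, A49, A54, A59 and AB11. In 3 of the 5 Lov-treated tumors Esr1 was above the highest Vhcl-treated tumor, while Lov A19 lay with the lower Vhcl-treated tumors, so the groups overlapped. The mean was 8.26 ± 0.40 with Lov and 7.76 ± 0.48 with Vhcl (SD, n = 5 each). The log2 difference of 0.50 ± 0.24 (SE) equals 1.41-fold, with a 95% interval of -0.03 to 1.03 (limma, adjusted p = 0.956). By the exact permutation test over all assignments of the tumors to the groups, whose smallest possible 2-sided p is 0.00794, p was 0.127.

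The Esr1 difference was the largest of the 8 and depended on single tumors. It was 0.66 without Lov A19, 0.63 without Vhcl A54 and 0.58 without Vhcl A49, each with an unadjusted limma p under 0.05 (adjusted p = 0.648, 0.766 and 0.976). It was 0.37 without Vhcl A45 or without Vhcl A59, where the unadjusted p stayed above 0.05. A second Esr1 probe set read 4.22 to 4.80 with Lov and 3.99 to 4.87 with Vhcl and followed the main one across the tumors (Pearson's r = 0.815). The third, at 3.76 to 4.18 with Lov and 3.75 to 4.34 with Vhcl, did not (r = 0.02). These 2 probe sets lay below the array median in all tumors, and their differences were 0.20 (95% interval -0.16 to 0.56) and -0.02 (-0.30 to 0.26).

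Pgr encodes the progesterone receptor, itself a classic target of estrogen receptor alpha. It was near the bottom of the arrays, where only 13.5% to 23.5% of all probe sets gave a lower signal. The main probe set read 3.25, 3.36, 3.29, 3.23 and 3.36 in Lov A19, A48, A50, A55 and AB10, against 3.68, 3.32, 3.57, 3.45 and 3.40 in Vhcl A45, A49, A54, A59 and AB11. All 5 Lov-treated tumors were below the Vhcl median of 3.45 and 3 were below every Vhcl-treated tumor, with Vhcl A49 the exception that made the groups overlap. The mean was 3.30 ± 0.061 with Lov and 3.48 ± 0.14 with Vhcl (SD, n = 5 each).

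The log2 difference for Pgr was -0.19, with a 95% interval of -0.38 to 0.01 (limma, adjusted p = 0.956). The exact permutation test gave a 2-sided p of 0.0317, not adjusted for the number of genes. The other 2 Pgr probe sets, also below the array median in all tumors, showed no such pattern, with differences of 0.006 (95% interval -0.19 to 0.21) and 0.04 (-0.16 to 0.24). Neither followed the main probe set over the tumors (r = -0.03 and -0.05). A shift of this size in a signal this low was thus seen at 1 of 3 probe sets of the gene.

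**Figure D2:**
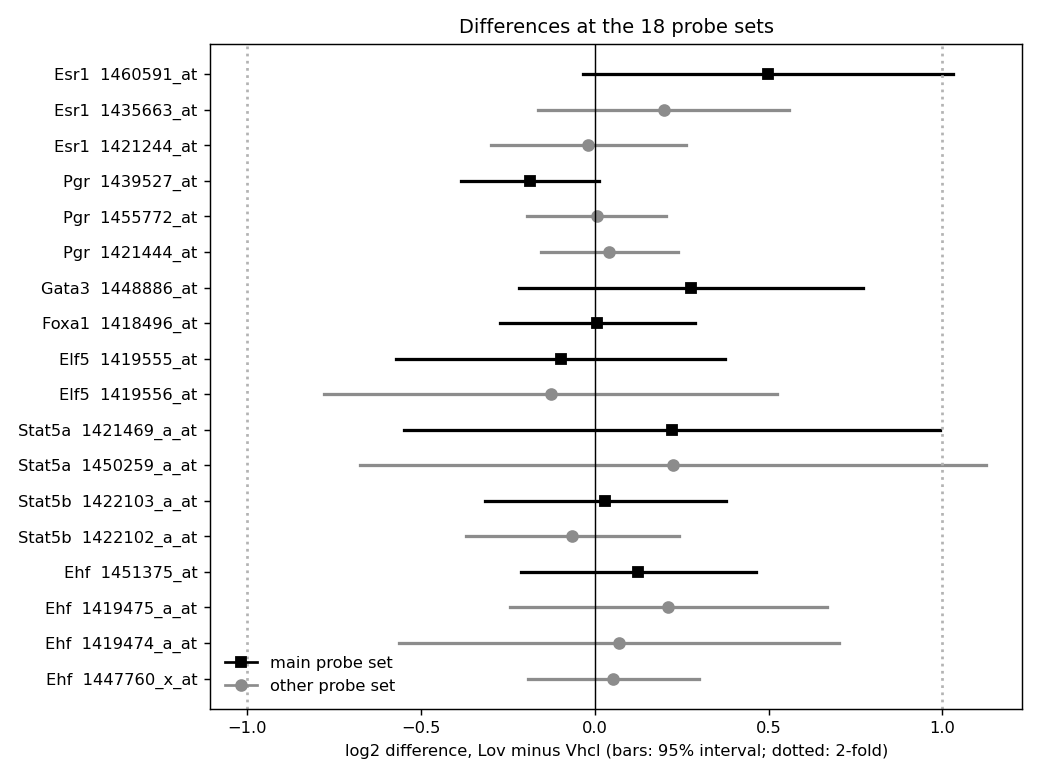
Log2 difference, Lov minus Vhcl (horizontal axis), with its 95% interval from limma, at each of the 18 probe sets (rows), where squares are main and circles are other probe sets. The interval reached 0 at all 18, and among the main probe sets only that of Esr1 crossed the dotted 2-fold line.

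Foxa1 encodes a forkhead protein that opens chromatin for the estrogen receptor. Its single probe set read 3.86, 3.76, 3.61, 3.58 and 3.76 in Lov A19, A48, A50, A55 and AB10, against 3.96, 3.85, 3.35, 3.87 and 3.50 in Vhcl A45, A49, A54, A59 and AB11. The Lov-treated tumors lay wholly inside the Vhcl range, and all 10 values were below the array median. The log2 difference was 0.008 with a 95% interval of -0.27 to 0.29 (limma, adjusted p = 0.998), and it was -0.01 once the arrays were centered on their medians.

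Gata3 encodes the zinc finger factor that keeps luminal cells differentiated. It read 9.61, 10.02, 10.07, 10.12 and 10.27 in Lov A19, A48, A50, A55 and AB10, against 8.89, 10.21, 10.12, 9.68 and 9.81 in Vhcl A45, A49, A54, A59 and AB11. Vhcl A45 was the lowest tumor by a wide margin, and 1 Lov-treated tumor exceeded the highest Vhcl-treated one. The log2 difference was 0.28 with a 95% interval of -0.22 to 0.77 (exact permutation p = 0.381; limma, adjusted p = 0.986). Without Vhcl A45 it was 0.06.

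Elf5 encodes the ETS factor of alveolar cell fate. It read 11.68, 11.49, 11.31, 11.35 and 11.17 in Lov A19, A48, A50, A55 and AB10, against 11.45, 12.36, 11.18, 11.47 and 11.03 in Vhcl A45, A49, A54, A59 and AB11. At least 98.8% of all probe sets gave a lower signal in every tumor. All Lov-treated tumors fell between the lowest and the highest Vhcl-treated tumor, and Vhcl A49 stood above the other 9. The log2 difference was -0.10 with a 95% interval of -0.57 to 0.38 (exact permutation p = 0.817; limma, adjusted p = 0.993), and 0.12 without Vhcl A49. The second Elf5 probe set also peaked in Vhcl A49, at 8.20, against 6.47 to 7.46 in Lov-treated and 6.58 to 6.79 in the other Vhcl-treated tumors.

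Ehf encodes another ETS factor, restricted to epithelia. Its main probe set read 9.65, 10.15, 9.82, 10.01 and 9.74 in Lov A19, A48, A50, A55 and AB10, against 9.41, 10.24, 9.81, 9.65 and 9.63 in Vhcl A45, A49, A54, A59 and AB11. The lowest and the highest tumor were both Vhcl-treated. The log2 difference was 0.13 with a 95% interval of -0.21 to 0.46 (exact permutation p = 0.460; limma, adjusted p = 0.988). Its other 3 probe sets differed by 0.21, 0.07 and 0.05, and the first of these followed the main one most closely over the tumors (r = 0.833, against 0.582 and -0.08 for the other two).

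Stat5a encodes the transcription factor that prolactin activates in alveolar cells. It read 7.96, 8.95, 8.93, 8.75 and 9.24 in Lov A19, A48, A50, A55 and AB10, against 7.98, 9.91, 7.99, 8.47 and 8.37 in Vhcl A45, A49, A54, A59 and AB11. In 4 of the 5 Lov-treated tumors Stat5a was above 4 of the 5 Vhcl-treated tumors. The exceptions were Lov A19, the lowest of all 10, and Vhcl A49, the highest. The mean was 8.77 ± 0.48 with Lov and 8.54 ± 0.79 with Vhcl (SD, n = 5 each), and the log2 difference was 0.22 with a 95% interval of -0.55 to 0.99 (exact permutation p = 0.643; limma, adjusted p = 0.989).

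Without Vhcl A49 the Stat5a difference was 0.56 and that at the second Stat5a probe set 0.64, against 0.22 at both with all tumors. Each of these had an unadjusted limma p under 0.05 (adjusted p = 0.976 for both). That probe set read 6.23 to 7.55 in Lov-treated tumors, against 8.33 in Vhcl A49 and 6.02 to 6.54 in the other Vhcl-treated tumors. Adjusted for RNA integrity, measured as the 3' over 5' signal of beta-actin, the main difference was 0.05 (limma, adjusted p = 0.990).

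Stat5b encodes the close relative of STAT5A that acts chiefly downstream of growth hormone. It read 7.76, 8.27, 8.22, 8.17 and 7.91 in Lov A19, A48, A50, A55 and AB10, against 7.69, 8.53, 7.98, 7.89 and 8.09 in Vhcl A45, A49, A54, A59 and AB11. The lowest and the highest tumor were again Vhcl A45 and Vhcl A49. The log2 difference was 0.03 with a 95% interval of -0.32 to 0.38 (exact permutation p = 0.889; limma, adjusted p = 0.998), and -0.06 (95% interval -0.37 to 0.24) at the second probe set. Stat5a and Stat5b are alike in sequence, and whether their probe sets tell them apart was not tested.

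The second question was how the members varied from tumor to tumor within the groups. Vhcl A49 was the highest of the 10 tumors for 4 of the 8 genes (Elf5, Stat5a, Stat5b and Ehf), at 0.91, 1.25, 0.48 and 0.43 from the mean of all tumors. Vhcl A45 was the lowest for 4 (Esr1, Gata3, Stat5b and Ehf), at -0.78, -0.99, -0.36 and -0.40 from that mean, and the highest for Pgr and Foxa1. Among Lov-treated tumors, AB10 was the highest for Esr1 and Gata3, and A19 the lowest for Stat5a. Only without Vhcl A49, among removals of 1 tumor, did more than 1 of the 8 genes have an unadjusted p under 0.05. Esr1 and Stat5a were then higher and Pgr lower in Lov-treated tumors. In that fit 2200 of the 45037 probe sets had an unadjusted p under 0.05. The lowest adjusted p of any probe set there was 0.915 (limma, Benjamini-Hochberg).

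**Figure D3:**
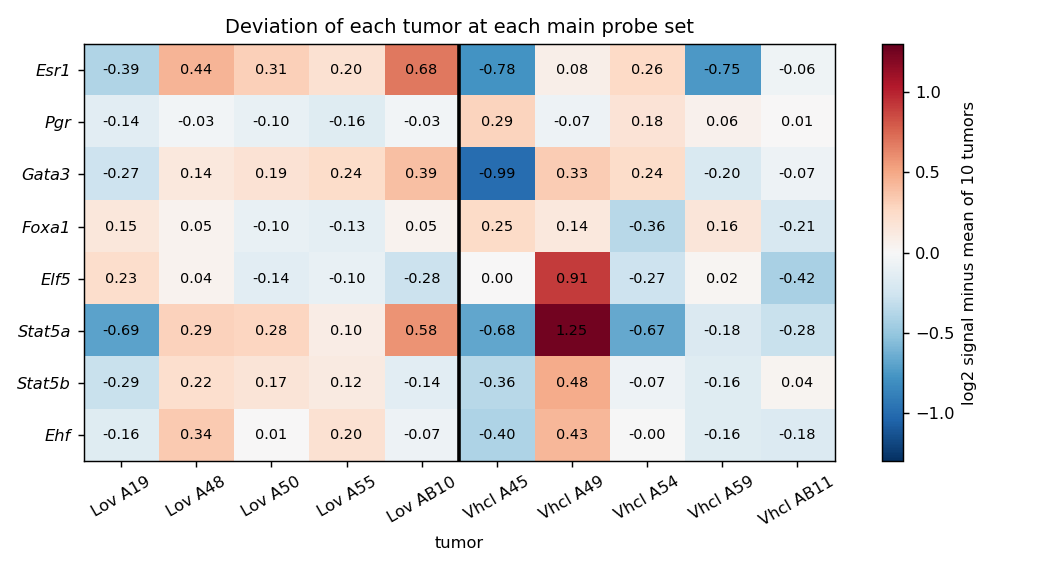
Log2 signal of each tumor minus the mean of the 10 tumors (color and printed value) at the main probe set of each gene, with the 5 Lov-treated tumors left of the black line and the 5 Vhcl-treated tumors right of it. The column of Vhcl A49 holds the highest values of Elf5, Stat5a, Stat5b and Ehf, up to 1.25, and that of Vhcl A45 the lowest of Esr1 and Gata3.

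Pairs of members were then compared over the 10 tumors, which makes 28 pairs. Esr1 and Gata3 varied together, with Pearson's r = 0.849 (permutation p = 0.00045, adjusted over the 28 pairs 0.0063) and Spearman's rho = 0.754 (permutation p = 0.0147, adjusted 0.107). Without Vhcl A45 and Vhcl A59, the tumors farthest from the Esr1 median, r was 0.822, and it was 0.935 over the Lov-treated and 0.832 over the Vhcl-treated tumors alone. Stat5b and Ehf gave r = 0.893 (permutation p = 0.00045, adjusted 0.0063) and rho = 0.863 (permutation p = 0.00182, adjusted 0.051). Their r was 0.744 without Vhcl A45 and Vhcl A49, and 0.845 in the Lov and 0.941 in the Vhcl group.

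By adjusted p, 2 of the 28 pairs passed 0.05 with Pearson's r and 0 with Spearman's rho, whose 2 lowest adjusted values were 0.051 and 0.107 (7 pairs had an unadjusted p under 0.05 for r). Stat5a and Stat5b gave r = 0.794 (permutation p = 0.00597, adjusted 0.0557), which was 0.532 without Vhcl A49 and Lov A19. Elf5 and Stat5a, partners at milk gene promoters, gave r = 0.511 over all tumors (permutation p = 0.131), -0.89 within the Lov and 0.892 within the Vhcl group, and -0.25 without Vhcl A49. That pair had no common direction in the 2 groups. Depth does not enter on arrays, but all values of a tumor come from 1 array and share its RNA and normalization.

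**Figure D4:**
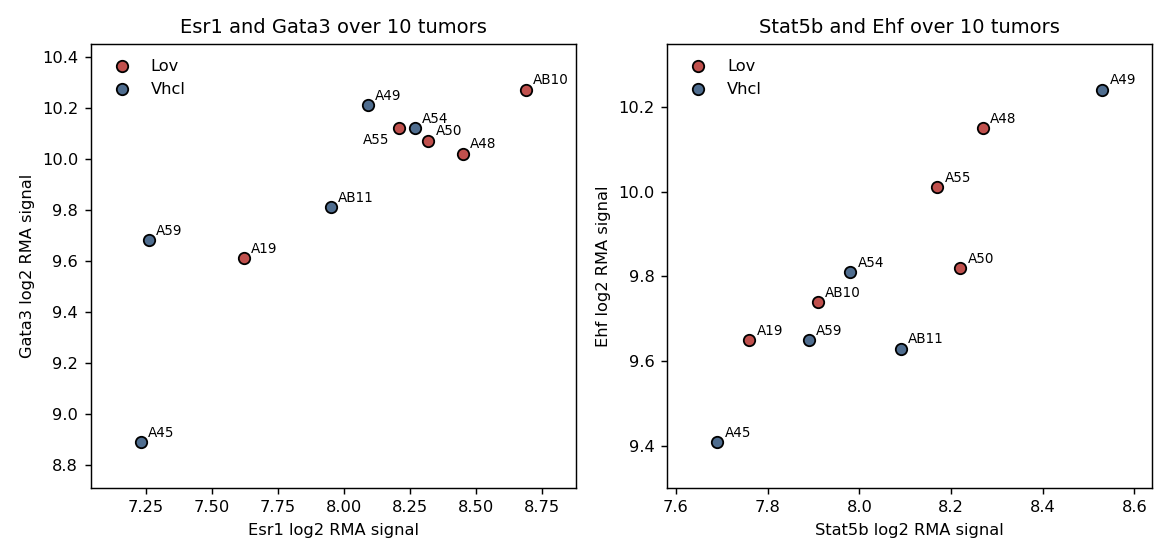
Log2 RMA signals of Esr1 against Gata3 (left) and Stat5b against Ehf (right) in the 10 tumors, each point a tumor labeled with its ID, red for Lov and blue for Vhcl. Both pairs vary together across the tumors (r = 0.849 and 0.893), and Vhcl A45 is the lowest point of both.

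Among genes whose mean signal exceeded the median of all (11521 compared with each of the brighter members), those most like a member after removal of the group means were listed as a description over 10 tumors. Dusp3, Gimap3 and Tlr4 were nearest to Esr1 (r = 0.956, 0.941 and 0.924), and Cp, Tlr4 and Arhgef26 to Gata3 (r = 0.961, 0.953 and 0.952). Tlr4, a pattern recognition receptor, was the 1 gene on more than 1 of these lists. Tbc1d8, Stk10 and Fam234b were nearest to Elf5 (r = 0.981, 0.970 and 0.959), Cd2ap, Man1a2 and Lama1 to Stat5a (r = 0.940, 0.933 and 0.927), and Stxbp4, Rhbdd1 and Scamp3 to Stat5b (r = 0.971, 0.965 and 0.945). Ksr2, Mrpl24 and Phf12 were nearest to Ehf (r = 0.935, 0.920 and 0.917). For the dim genes the nearest were Zdhhc13, Las1l and Slc22a12 to Pgr (r = 0.914, 0.913 and 0.911) and Prrg4, Jade1 and Atp5g3 to Foxa1 (r = 0.927, 0.917 and 0.913).

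The genes around the members in their pathways were read in the same way, with 1 main probe set per gene. The background for every list count below is the share of all probe sets with an unadjusted p under 0.05. It was 5.28% (3.13% higher and 2.16% lower with Lov). Of 15 measured estrogen and progesterone target genes, 0 were higher and 1 was lower with Lov at an unadjusted p under 0.05. Their median difference, that of Greb1, was 0. Among the 15, 4 were below the array median in all tumors, Greb1 and Tnfsf11 included. Areg and Rbbp8 of the same list were not among the measured genes. The progesterone-induced ligands of hormone-sensing cells, Wnt4 (4.98 ± 0.24 with Lov and 5.16 ± 0.21 with Vhcl) and Tnfsf11 (3.56 ± 0.047 with Lov and 3.50 ± 0.14 with Vhcl; SD, n = 5 each), did not pass, nor did Greb1 and Ccnd1. The 1 lower gene was Igfbp4, an IGF-binding protein, at 8.20 ± 0.56 with Lov and 8.85 ± 0.44 with Vhcl, a log2 difference of -0.66 (exact permutation p = 0.0952; limma, adjusted p = 0.932). It lost this call in 4 of the 10 fits that left out 1 tumor, those without Lov AB10, Lov A55, Lov A50 and Vhcl A59. It also lost it with the beta-actin covariate for RNA integrity (-0.53), without the 3 tumors with the highest muscle signal, Lov A55, Vhcl A54 and Vhcl A59 (-0.43), and without Vhcl A59 and Vhcl AB11 (-0.53). None of the 5 measured markers of hormone-sensing cells passed in limma (0 at an unadjusted p under 0.05, median -0.13, that of Cited1). Of these 5, 3, Cited1 included, were below the array median in all tumors. The remaining markers, Prom1 and Spdef, were lower with Lov, with log2 differences of -0.72 and -0.80 (limma, adjusted p = 0.958 and 0.971). Without Lov A19, 2 markers were lower at an unadjusted p under 0.05. The count was 1 without Vhcl A45, Vhcl A49 or Vhcl AB11, and 0 in the other fits without 1 tumor. It was 0 with the beta-actin covariate and 1 without Vhcl A59 and Vhcl AB11. Of 12 other steroid receptors and cofactors, among them Esr2 (log2 difference -0.11), the glucocorticoid receptor gene Nr3c1 (0.02) and the coactivator gene Ncoa3 (0.37), 0 passed in limma, with a median of 0.05.

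In the prolactin, growth hormone and JAK2-STAT5 pathway, 1 of 12 genes was higher and 2 were lower with Lov at an unadjusted p under 0.05. Over all probe sets 3.13% were higher and 2.16% lower. Socs2, a suppressor of growth hormone signaling that STAT5 induces, read 11.74, 12.26, 12.28, 12.43 and 12.33 in Lov A19, A48, A50, A55 and AB10, against 11.76, 11.52, 12.18, 11.97 and 11.74 in Vhcl A45, A49, A54, A59 and AB11. Its log2 difference was 0.37 (exact permutation p = 0.0635; limma, adjusted p = 0.932), with Lov A19 apart from the other 4 Lov-treated tumors, all of which lay above the Vhcl range. Its unadjusted call was lost in 7 of the 10 fits that left out 1 tumor and kept without Lov A19, Vhcl A54 or Vhcl A59. It was also lost without Vhcl A59 and Vhcl AB11 together.

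Socs3, a suppressor that STAT3 and STAT5 induce, averaged 5.52 ± 0.91 with Lov and 6.54 ± 0.78 with Vhcl (SD, n = 5 each; exact permutation p = 0.103; limma, adjusted p = 0.932), a call kept in 4 of the 10 fits, those without Lov A19, Lov A48, Vhcl A45 and Vhcl AB11. The Socs3 difference was -1.01, and it was -0.64 with the beta-actin covariate, -0.61 without Lov A55, Vhcl A54 and Vhcl A59 and -0.93 without Vhcl A59 and Vhcl AB11, with no call in these 3 fits. Ptpn1, a phosphatase that dephosphorylates JAK2, averaged 8.17 ± 0.12 with Lov and 8.48 ± 0.23 with Vhcl (exact permutation p = 0.0159; limma, adjusted p = 0.928), a call lost only without Lov AB10. Jak2 itself (7.46 ± 0.22 with Lov and 7.59 ± 0.20 with Vhcl) and the STAT5 target Cish (8.23 ± 0.15 with Lov and 8.19 ± 0.21 with Vhcl) did not pass.

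Of 8 milk protein genes, the end products of this pathway, 1 was higher and 0 were lower with Lov in limma at an unadjusted p under 0.05, with 3 positive differences and a median of -0.44. That median was -0.73 to -0.18 without 1 tumor, with 2 genes lower without Vhcl A45 or without Vhcl AB11. It was -0.30 with the beta-actin covariate, -0.08 without Vhcl A59 and Vhcl AB11, and 0.07, with 5 positive differences, without Lov A55, Vhcl A54 and Vhcl A59. Lalba, which encodes alpha-lactalbumin of the lactose synthase complex, read 11.80, 11.79, 12.87, 12.29 and 12.11 in Lov A19, A48, A50, A55 and AB10, against 10.22, 12.28, 11.06, 10.78 and 11.83 in Vhcl A45, A49, A54, A59 and AB11. Its log2 difference was 0.94 (exact permutation p = 0.0873; limma, adjusted p = 0.928), and its unadjusted call was lost without Vhcl A45, Vhcl A59 or Lov A50. It was also lost with the beta-actin covariate (0.75) and without Lov A55, Vhcl A54 and Vhcl A59 (0.70). Vhcl A49, the tumor with the highest Elf5 and Stat5 signals, was also the highest for Wap, the whey acidic protein gene, and for the casein gene Csn1s2b. It read 10.28 for both, against 5.57 to 7.19 for Wap and 5.97 to 8.42 for Csn1s2b in Lov-treated tumors. In the other Vhcl-treated tumors Wap read 5.29 to 9.10 and Csn1s2b 4.41 to 8.63, with Vhcl A45 the lowest of the 10 for both. Both genes were picked after their values were seen. Among the bright caseins, Csn1s1 and Csn2 were highest in Vhcl A59, at 13.79 and 13.34, not in Vhcl A49 (13.60 and 13.11). Csn1s2a was highest in Vhcl A49, at 13.53 against 13.51 in Vhcl A59. Csn3 was highest in Vhcl A59 (14.34) and lowest in Vhcl A49 (14.04).

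**Figure D5:**
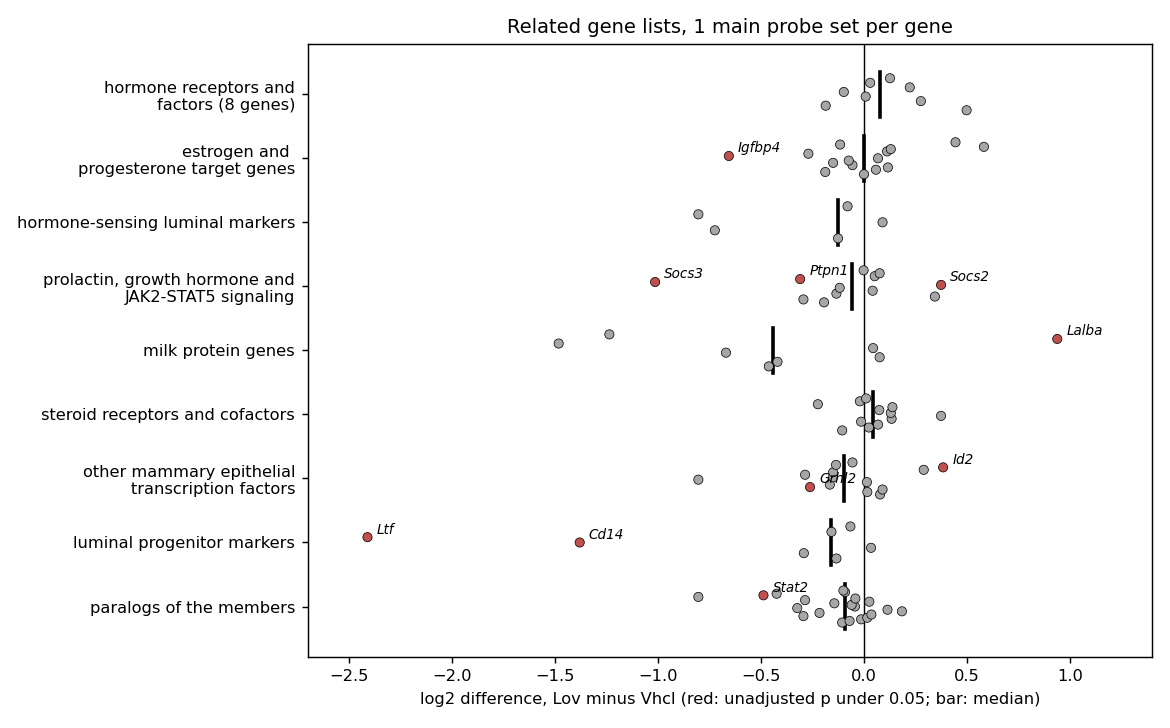
Log2 difference, Lov minus Vhcl (horizontal axis), of the 8 members and of the genes of 8 related lists (rows), with 1 point per gene and a bar at each median. Red points had an unadjusted limma p under 0.05 and are named; the members hold 0 of them and span -0.19 to 0.50.

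Of 14 other transcription factors of mammary epithelium, 1 was higher and 1 lower with Lov at an unadjusted p under 0.05. Id2, an inhibitor of helix-loop-helix factors needed for alveolar development, read 11.22, 11.07, 11.21, 11.29 and 11.14 in Lov A19, A48, A50, A55 and AB10, against 10.82, 10.80, 10.81, 10.79 and 10.79 in Vhcl A45, A49, A54, A59 and AB11. The groups did not overlap, as for 0.602% of all probe sets (0.344% with Lov above). The exact permutation p of 0.00794, the smallest the design allows, follows from that lack of overlap and adds nothing to it. The log2 difference was 0.38 ± 0.077 (SE), with an adjusted p of 0.840 in limma. Id2 was named by its p in these same data. Its unadjusted call held in all 10 fits that left out 1 tumor, with differences of 0.36 to 0.41. Grhl2, a grainyhead-like epithelial factor, averaged 8.33 ± 0.16 with Lov and 8.59 ± 0.21 with Vhcl (exact permutation p = 0.0714; limma, adjusted p = 0.939) and lost its call in 7 of those 10 fits, all but those without Lov A19, Lov A55 and Vhcl AB11. It also lost it with the beta-actin covariate and without Lov A55, Vhcl A54 and Vhcl A59.

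Luminal progenitor cells were represented by 7 genes, of which 0 were higher and 2 lower with Lov at an unadjusted p under 0.05. Cd14, a lipopolysaccharide co-receptor also made by myeloid cells, averaged 7.95 ± 0.54 with Lov and 9.33 ± 1.20 with Vhcl (SD, n = 5 each; exact permutation p = 0.0635; limma, adjusted p = 0.928), a call kept in all 10 fits without 1 tumor but not in the 2 fits given after Ltf. Ltf, which encodes lactoferrin, averaged 6.44 ± 1.05 with Lov and 8.85 ± 2.48 with Vhcl (exact permutation p = 0.0873; limma, adjusted p = 0.932). Its Vhcl mean rested on Vhcl A49 (11.09) and Vhcl A59 (11.81), and the call was lost without either of them, and also without Lov A50 or Lov AB10. With the beta-actin covariate, and without Lov A55, Vhcl A54 and Vhcl A59, 0 of the 7 genes passed. The Cd14 difference of -1.38 was then -1.17 and -0.90, and the Ltf difference of -2.41 was -2.10 and -2.08. The progenitor gene Kit did not pass (10.44 with Lov and 10.58 with Vhcl on average). Among 7 leukocyte markers, which whole-tumor RNA also holds, Csf1r and Cd3g were higher and Itgam lower with Lov at an unadjusted p under 0.05 (limma, 2 of 7 and 1 of 7). The Csf1r and Cd3g calls were lost without Lov A55, Vhcl A54 and Vhcl A59, and those of Csf1r and Itgam without Lov A19 and Vhcl AB11. The Csf1r call was also lost without Vhcl A59 and Vhcl AB11, and that of Itgam without Vhcl A45 or without Lov A50. The mean of the 7 was 6.20 to 6.63 in Lov-treated and 6.25 to 6.55 in Vhcl-treated tumors, and their part in the Cd14 difference was not tested.

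Of 21 measured paralogs of the members (other GATA, forkhead A, ELF, estrogen-related, growth hormone receptor and STAT genes), 0 were higher and 1 was lower with Lov at an unadjusted p under 0.05. Stat2, a mediator of interferon signaling, averaged 5.44 ± 0.41 with Lov and 5.93 ± 0.12 with Vhcl (SD, n = 5 each; exact permutation p = 0.0238; limma, adjusted p = 0.928). The paralogs had a median difference of -0.09, and 5 of 21 differences were positive, against a median of 0.01 over all probe sets. Some genes stand on more than 1 of these lists, so the lists are not independent of one another.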

How the data were processed

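RNA of 10 whole mammary tumors, 5 Lov-treated and 5 Vhcl-treated, was measured on 1 Affymetrix Mouse Genome array per tumor. The authors deposited log2 signals made by RMA with the affy package (version not given in the sources used here), which corrects background, quantile-normalizes the arrays and summarizes the probes of a probe set. They are given to 2 decimals and were used as deposited. Quantile normalization gives all arrays nearly the same distribution, so a shift of all genes together would not be seen. Arrays have no sequencing depth, and their number limits the precision.

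Of the probe sets, 64 array controls were left out and 45037 were tested 2-sided with limma 3.58.1 in R 4.3.3, with p-values adjusted over the whole table by Benjamini-Hochberg (prior degrees of freedom 3.61). Of these, 34945 carried 1 gene symbol, 932 several and 9160 none, and a gene was read only through probe sets of the first kind. Permutation tests were run in Python 3.11.15, exact for groups and with 100000 resamples for correlations. The correlation coefficients were computed with scipy 1.17.1. Unadjusted p-values under 0.05 were counted as a description, and 95% intervals are those of the moderated fit. The members and the lists were chosen with earlier results of these data known. By rule, all members were named, up to 4 genes of a list with the lowest limma p under 0.05, and the 3 genes most like each member. Wap, Csn1s2b and the other list genes given as examples were chosen after their values were seen. The procedure was tested on simulated data.

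Alternatives were a trended and robust prior, a t-test without moderation, array weights, centering and a repeated quantile normalization. Others were covariates for the tumor ID prefix or for the 3' over 5' signal of beta-actin, and other choices of probe set. The rest were a filter on dim probe sets, values relative to epithelial markers, and leaving out tumors. Leaving out the muscle-high or the salivary-high tumors was added after seeing the data.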

Additional observations from a re-analysis of the deposited data

Results flagged for a closer look

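Among 35 probe sets (the 18 of the members and those of the named list genes), each group of 5 tumors was searched for a tumor set apart from the other 4, by the gap to its neighbor over the range of the group (above 0.71). Of the 70 groups, 8 held such a tumor. Chance gives about 1 in 20 for independent groups that were not selected. These groups are neither, because some probe sets share a gene and the list genes were named by their p. The count therefore does not show an excess. In Vhcl A49, Elf5 read 8.20 at its second probe set, against 6.58 to 6.79 in the other Vhcl-treated tumors. The same tumor read 9.91 at the main Stat5a probe set, against 7.98 to 8.47, and 8.33 at the second, against 6.02 to 6.54. For Pgr, Lov A55 read 2.87 at a probe set near the bottom of the arrays, against 3.11 to 3.20 in the other Lov-treated tumors.

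In the related lists, Lov A19 read 11.74 for Socs2, against 12.26 to 12.43 in the other Lov-treated tumors, and 6.38 for the salivary marker Dcpp1, against 4.32 to 4.58. Vhcl AB11 read 8.22 for Grhl2, against 8.62 to 8.71 in the other Vhcl-treated tumors. Vhcl A59 read 9.62 for Igfbp4, against 8.47 to 8.76.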

How the results depend on the processing

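Over the alternatives run, Esr1, Gata3, Stat5a and Ehf kept a positive and Pgr a negative difference, and no member passed an adjusted p of 0.05. The count of members at an unadjusted p under 0.05 was 0 in the main fit. It was 1 with a trended and robust prior, with a t-test without moderation, with array weights and with centered arrays (Pgr lower each time). It was also 1 relative to epithelial markers and without Lov A19 and Vhcl AB11 together (Esr1 higher each time). It was 0 to 3 when 1 tumor was left out, and 1 (Esr1 higher) without Vhcl A54 or without Lov A19. The count of 3 was without Vhcl A49, where 2200 of the 45037 probe sets had such a p. The differences of 3 genes were close to 0 and changed sign, and the cause was not tested. That of Elf5 was 0.057 relative to epithelial markers, a scaling that adds 0.15 to every gene's difference alike, and -0.215 to 0.118 without 1 tumor. That of Foxa1 was -0.01 with centered arrays, -0.08 without Lov A19 and Vhcl AB11, -0.023 without Vhcl A54, Vhcl A59 and Lov A55, -0.006 without Vhcl A59 and Vhcl AB11, and -0.081 to 0.072 without 1 tumor. That of Stat5b was -0.083 with the beta-actin covariate, -0.017 as the mean of its probe sets, -0.063 without Vhcl A54, Vhcl A59 and Lov A55, -0.00067 without Vhcl A59 and Vhcl AB11, and -0.057 to 0.154 without 1 tumor. Over all probe sets, 0 passed an adjusted p of 0.05 (limma, 2379 at an unadjusted p under 0.05), 4 without Lov A19 and Vhcl AB11, and 0 to 1 without 1 tumor, the 1 being without Vhcl A54. The unadjusted count was 1488 among probe sets above the median signal, where fewer were tested, and 1383 without Vhcl A54, Vhcl A59 and Lov A55. The filter on dim probe sets left no Pgr or Foxa1 value. Leaving out probe sets with an ID ending in _a_at, _s_at or _x_at left none for Stat5a and Stat5b, whose IDs all end in _a_at. No paired analysis was possible because the labels give tumor IDs and no number shared between the groups. Signals below the array median, as for Pgr and Foxa1, compress differences.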

Other observations

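The other cell type markers, read with 1 main probe set per gene, were spread as follows, where 5.28% of all probe sets had an unadjusted p under 0.05. Of 8 luminal epithelial markers, Cd24a, a surface protein of luminal cells, was higher with Lov at an unadjusted p under 0.05, at 12.38 ± 0.20 with Lov and 11.93 ± 0.34 with Vhcl (SD, n = 5 each; exact permutation p = 0.0317; limma, adjusted p = 0.928), and the keratin genes Krt8 and Krt18 did not pass. The call was lost without Lov A55, Vhcl A54 and Vhcl A59, and the 8 markers had 2 positive differences and a median of -0.08. Of 5 adipocyte markers 1 was lower (Fabp4, a fatty acid carrier, log2 difference -0.86), a call lost in 7 of the 10 fits without 1 tumor and, among others, with the beta-actin covariate. Of 6 salivary gland markers 2 were lower (Prol1 and Dcpp1, log2 differences -2.55 and -3.18), and the Dcpp1 call was lost without Vhcl A59 and Vhcl AB11. In limma, 0 of 8 basal and myoepithelial, 0 of 7 fibroblast, 0 of 6 endothelial and 0 of 6 skeletal muscle markers had an unadjusted p under 0.05. After adjustment over all probe sets, 0 genes of any of these lists passed.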
